A study of Mus musculus with 20 samples.

Results

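*Runx1*, *Runx2*, *Runx3*, *Runx1t1* and *Cbfb*, the Runx transcription factors and their partners, were examined for peaks of 5-formylcytosine (5fC) in tissues of mouse embryos at embryonic day (E) 11.5. The 5 genes were taken by name from 22183 protein-coding genes, and each was given a window from 5 kb before its first annotated base to 5 kb after its last. The pull-down libraries came from hindbrain (4 wild-type (WT) and 4 *Tdg* null) and from heart, liver and carcass (2 WT and 2 *Tdg* null each). *Tdg* null embryos were homozygous for an allele in which a neomycin-resistance cassette takes the place of the sequence coding for the catalytic domain of TDG, and both genotypes came from crosses between heterozygotes. The hindbrains were from 8 embryos, 1 of each genotype in the litters A, O, Q and Z. The labels put the other tissues in 4 further embryos of litters pair_a and pair_b, so that heart, liver and carcass of 1 embryo share their source. The *Tdg* null liver of pair_b was not used in the study because of its quality. It held 228 peaks in all and none in the 5 windows, and it was left out of every value that follows.

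5fC arises when TET enzymes oxidise 5-methylcytosine, and TDG removes it as a step of active DNA demethylation. RUNX proteins bind DNA through the Runt domain, and CBFβ, encoded by *Cbfb*, binds to them and raises their affinity for DNA without contacting it. *Runx1* is required for the first definitive blood stem cells and acts in the fetal liver, *Runx2* for bone, and *Runx3* for proprioceptive sensory neurons and T cells. *Runx1t1* (ETO) encodes a corepressor of the MTG family, which is fused to RUNX1 in acute myeloid leukaemia. Each *Runx* gene is transcribed from a distal and a proximal promoter. No cell type marker can be read from peaks of genomic DNA, so the labelled tissues were not checked against their markers.

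The *Tdg* null libraries held 101344 to 254319 peaks, which covered 2.68% to 8.09% of the ungapped genome, and the WT libraries 1563 to 42013 peaks, which covered 0.0349% to 0.939%. The files hold the positions of peaks and no reads, so the sequencing depth behind them is unknown. The window of *Tdg* itself had peaks in 8 of 9 *Tdg* null and 3 of 10 WT libraries, which cannot check the deletion. Because libraries differed in their total of peaks, each value was also set against the share of the whole genome under peaks in the same library.

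Positions are those of NCBIM37 (mm9), with the GENCODE annotation of that build. *Runx1* spans chr16:92601712-92826311 on the minus strand and *Runx2* chr17:44632936-44951746 on the minus strand. *Runx3* spans chr4:134676567-134733905, *Runx1t1* chr4:13670583-13820796 and *Cbfb* chr8:107694574-107741886, all on the plus strand. The windows measured 234.6 kb, 328.811 kb, 67.339 kb, 160.214 kb and 57.313 kb in the order *Runx1*, *Runx2*, *Runx3*, *Runx1t1* and *Cbfb*. All were longer than those of at least 77.3% of protein-coding genes, so genes with windows of at least 57.313 kb, 5040 in number, served as a second background. The start of *Supt3h* overlaps that of *Runx2* on the other strand, over 12.97% of the *Runx2* window, and peaks there cannot be given to either gene. That overlap held 1.24% to 16.3% of the covered bases of the *Runx2* window in the *Tdg* null libraries.

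The sequences around the distal starts of the 3 *Runx* genes are shown first, because the genes share a feature there and because these starts were compared with the peaks below. Each run has 250 bases before the start and 50 from it, reads 5′ to 3′ on the strand of the gene, and has in capitals each TGTGGT or ACCACA, the core motif of RUNX binding on either strand.
Runx1 distal start, chr16:92826262-92826561, minus strand: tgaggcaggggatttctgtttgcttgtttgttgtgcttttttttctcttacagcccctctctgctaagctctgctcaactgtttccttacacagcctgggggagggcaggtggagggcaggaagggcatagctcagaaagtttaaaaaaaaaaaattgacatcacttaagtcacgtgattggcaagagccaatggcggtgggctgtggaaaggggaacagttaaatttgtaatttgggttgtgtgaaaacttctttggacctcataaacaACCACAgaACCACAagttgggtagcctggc
Runx2 distal start, chr17:44951527-44951826, minus strand: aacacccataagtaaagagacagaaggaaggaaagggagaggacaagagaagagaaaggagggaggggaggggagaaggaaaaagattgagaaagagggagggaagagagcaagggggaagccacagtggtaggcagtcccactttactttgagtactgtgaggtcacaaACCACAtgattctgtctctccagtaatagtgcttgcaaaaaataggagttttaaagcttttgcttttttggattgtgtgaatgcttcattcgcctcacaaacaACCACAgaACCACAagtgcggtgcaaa
Runx3 distal start, chr4:134676317-134676616, plus strand: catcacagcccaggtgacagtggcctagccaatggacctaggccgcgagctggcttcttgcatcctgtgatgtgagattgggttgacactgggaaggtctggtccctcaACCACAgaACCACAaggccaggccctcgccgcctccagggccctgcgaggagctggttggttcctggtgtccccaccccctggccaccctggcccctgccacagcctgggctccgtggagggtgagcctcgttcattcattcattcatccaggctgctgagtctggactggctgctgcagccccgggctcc
The core was present 2 times at *Runx1*, 3 times at *Runx2* and 2 times at *Runx3*, always as ACCACA. The longest run of letters common to the 3 was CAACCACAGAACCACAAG, 18 bases with a pair of cores. Over the same span around 32851 RefSeq promoters (GRCm38.p6), 16.8% held TGTGGT or ACCACA and 4 (0.0122%) held the run of 18 bases on either strand. Those 4 were the promoters of *Runx1*, *Runx2*, *Runx3* and *Gm16225*, a noncoding gene that lies beside *Runx3* on the opposite strand. The run was taken from the 3 *Runx* starts, so their matches were fixed in advance. *Gm16225* starts at 134676362, inside the span shown for *Runx3*, so its match need not be a separate copy. A match of letters is not a measured binding site.

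The proximal starts of *Runx1*, *Runx2* and *Runx3* and the only start of *Cbfb* lie in CpG islands and had no peak within 1 kb in any of the 19 libraries, and those of *Runx1* and *Cbfb* are shown as examples. Capitals mark CpGs, the dinucleotide in which most mammalian cytosine methylation occurs.
Runx1 proximal start, chr16:92697524-92697823, minus strand: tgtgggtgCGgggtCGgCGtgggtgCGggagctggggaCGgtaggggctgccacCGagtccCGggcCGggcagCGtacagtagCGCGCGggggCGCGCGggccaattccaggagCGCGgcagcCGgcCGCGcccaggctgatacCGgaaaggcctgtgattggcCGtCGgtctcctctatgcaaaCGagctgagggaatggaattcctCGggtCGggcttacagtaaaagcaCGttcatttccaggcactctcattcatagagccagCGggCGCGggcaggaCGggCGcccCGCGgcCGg
Cbfb start, chr8:107694324-107694623, plus strand: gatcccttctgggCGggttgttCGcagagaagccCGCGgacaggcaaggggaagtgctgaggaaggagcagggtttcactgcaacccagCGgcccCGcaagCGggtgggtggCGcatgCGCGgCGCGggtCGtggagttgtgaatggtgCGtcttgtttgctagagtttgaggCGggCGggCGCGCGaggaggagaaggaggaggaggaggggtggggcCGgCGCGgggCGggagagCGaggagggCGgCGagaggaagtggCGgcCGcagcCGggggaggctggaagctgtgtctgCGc
These runs hold 35 and 30 CpGs at a GC content of 69.0% and 69.7%, against 2 CpGs at the distal start of *Runx1*.

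All 5 windows carried 5fC peaks in all 9 *Tdg* null libraries, as did at least 4113 of the 5040 genes with long windows. WT libraries had few peaks in the 5 windows and often none. *Runx1* had peaks in 8 of 10 WT libraries, *Runx2* and *Runx1t1* in 6, *Runx3* in 3 and *Cbfb* in 2. Summed over libraries, there were 311 *Tdg* null and 50 WT peaks at *Runx1*, 338 and 46 at *Runx2*, 68 and 7 at *Runx3*, 265 and 13 at *Runx1t1*, and 30 and 2 at *Cbfb*.

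**Figure D1:**
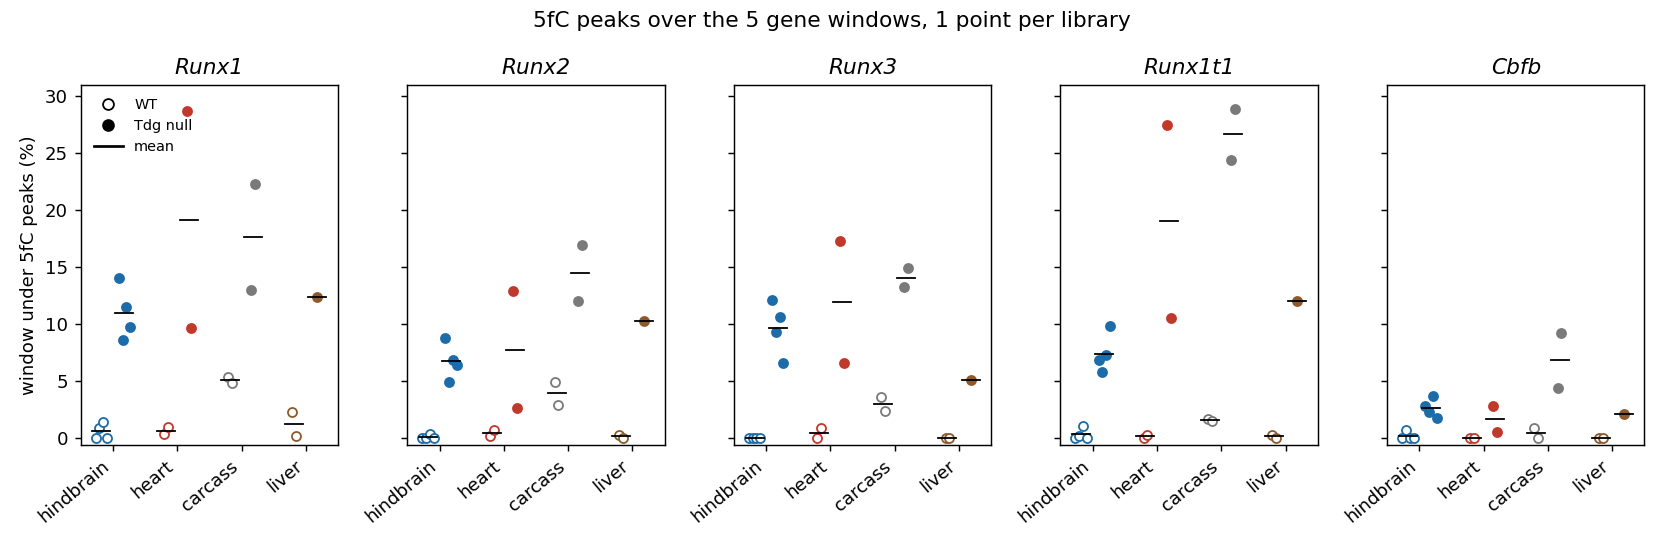
Percent of each gene window under 5fC peaks (vertical axis) in the 19 libraries, by tissue (horizontal axis). Open points are WT libraries, filled points *Tdg* null libraries and black lines group means. At each gene the 4 *Tdg* null hindbrain libraries sit above the 4 WT ones, and at *Runx1t1* the 2 *Tdg* null carcass libraries reach 24.4% and 28.9%.

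In hindbrain, *Runx1* had 14.1%, 8.62%, 11.5% and 9.72% of its window under peaks in the *Tdg* null libraries of litters A, O, Q and Z. The WT libraries of the same litters had 0%, 0.895%, 1.41% and 0%. The groups did not overlap, and litters O and Q were the WT litters with peaks. *Runx2* had 8.79%, 4.90%, 6.81% and 6.39% in the *Tdg* null libraries, and in WT only litter Q had peaks, over 0.365% of the window. *Runx3* had 12.1%, 9.26%, 10.6% and 6.58%, and no peak in any WT hindbrain. *Runx1t1* had 6.80%, 5.74%, 7.24% and 9.80%, against 0.187% in WT litter O, 0.999% in litter Q and 0% in the others. *Cbfb* was the least covered of the 5, at 2.79%, 2.27%, 3.66% and 1.74%, with 1 WT peak, in litter O, over 0.698% of its window.

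The differences between the mean of the *Tdg* null and the mean of the WT hindbrains were 10.4 percentage points at *Runx1*, 9.63 at *Runx3*, 7.10 at *Runx1t1*, 6.63 at *Runx2* and 2.44 at *Cbfb*. The median over all genes was 2.47 points, and over genes with long windows 3.67 points. Each of the 5 gave p = 0.0286 in a two-sided exact permutation test, the smallest that 4 against 4 libraries allow, and an adjusted p of 0.0518 (Benjamini-Hochberg over all 22183 genes). None of the 5 members therefore passed the threshold of 0.05, and neither did any other gene, a background of 0%. All 4 *Tdg* null above all 4 WT libraries was the pattern of 55.1% of all genes before adjustment, and of 5 of 5 members. The threshold was passed by 5 of 5 members and by 88.2% of genes when long genes alone were tested. All 5 also passed with windows of 10 kb on each side (63.4% of genes), or without the *Tdg* null hindbrain of litter O (58% of genes). These p-values are at the floor of the design for the members as for most genes with long windows, while by size of the difference *Runx1* stood at the 93.3rd, *Runx3* at the 91.4th, *Runx1t1* at the 82.5th, *Runx2* at the 80.3rd and *Cbfb* at the 49.7th percentile of all genes.

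With all tissues of a litter averaged, the *Tdg* null embryo exceeded its WT partner in 6 of 6 litters at each of the 5 genes. The mean difference was 11.7 ± 2.95 points at *Runx1*, 11.3 ± 6.72 at *Runx1t1*, 9.71 ± 1.88 at *Runx3*, 7.41 ± 1.84 at *Runx2* and 2.91 ± 1.24 at *Cbfb* (SD, n = 6 litters). An exact sign-flip test gave p = 0.03125 for each, the smallest that 6 litters allow, and an adjusted p of 0.057. Again 0 of 5 members and 0% of genes were called, and 54.8% of genes had the same direction in all 6 litters.

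The genotypes were also compared relative to the genome share. Log2 enrichment, the log2 ratio of the percent of a window to the percent of the genome under peaks, with 0.1 percentage points added to both, differed between *Tdg* null and WT hindbrains by 2.68 at *Runx3* and by 1.62 at *Runx2* (exact permutation p = 0.0286 for both, adjusted p = 0.0594 over all genes). No WT hindbrain had a peak at *Runx3* and 1 of 4 had any at *Runx2*, so the size of both differences is set by the added 0.1 points and the genome share of each library. This unadjusted level was reached by 23.6% of all genes in the same direction. The difference was 1.07 at *Runx1* (exact p = 0.2) and 1.07 at *Runx1t1* (exact p = 0.0571), and it was 0.08 at *Cbfb* (exact p = 0.857). The window had no peak in 2 of 4 WT hindbrains at *Runx1* and *Runx1t1* and in 3 of 4 at *Cbfb*, so these differences too rest in part on the added points. Within *Tdg* null hindbrain, where all libraries had peaks, *Cbfb* was covered at 0.785 ± 0.235 times the genome share (SD, n = 4).

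In heart, the 2 *Tdg* null libraries differed widely. *Runx1* had 28.7% and 9.64% of its window under peaks in pair_a and pair_b, *Runx2* 12.9% and 2.62%, *Runx3* 17.3% and 6.58%, *Runx1t1* 27.5% and 10.5%, and *Cbfb* 2.79% and 0.523%. The library of pair_a covered 8.09% of the genome and that of pair_b 3.64%. WT hearts had 0.298% and 0.980% at *Runx1*, 0.182% and 0.669% at *Runx2*, and at most 0.891% at the other genes. The genotypes did not overlap at 5 of 5 members, as at 63.9% of all genes, and an exact permutation test of 2 libraries against 2 cannot give a p under 0.333. On the enrichment scale both *Tdg* null hearts exceeded both WT hearts at *Runx1t1* alone of the 5 (45.2% of all genes). At *Cbfb* the order on that scale was turned (33.3% of all genes), but both WT hearts had no peak there while the *Tdg* null hearts had 4 and 1, so the turn comes from the 0.1 percentage points added to each value and shows no higher WT level.

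The carcass, which holds what remains of the embryo, had the most 5fC peaks at these genes among WT tissues. *Runx1* had 5.37% and 4.86% of its window under peaks in the WT carcasses of pair_a and pair_b, *Runx2* 4.90% and 2.92%, *Runx3* 3.56% and 2.38%, and *Runx1t1* 1.69% and 1.50%. Both WT carcass libraries exceeded the other 8 WT libraries at these 4 of 5 members, a pattern of 14.7% of all genes. They also held the most peaks of the WT libraries over the whole genome, and on the enrichment scale the pattern was seen at 0 of 5 members (5.62% of all genes). *Tdg* null carcasses had 13.0% and 22.3% at *Runx1*, 12.0% and 16.9% at *Runx2*, 13.2% and 14.9% at *Runx3*, 24.4% and 28.9% at *Runx1t1*, and 4.36% and 9.25% at *Cbfb*. The genotypes did not overlap at 5 of 5 members (60.2% of all genes). Relative to the genome share the order turned at *Runx1*, *Runx2* and *Runx3*, where both WT carcasses exceeded both *Tdg* null carcasses (38.3% of all genes). *Runx1* was covered 5.72 and 6.06 times as densely as the genome in WT carcass and 2.41 and 2.95 times in *Tdg* null carcass. Only *Runx1t1* of the 5 had both *Tdg* null carcasses above both WT carcasses on this scale (35% of all genes), at 4.53 and 3.83 times against 1.80 and 1.87 times.

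In liver, the single *Tdg* null library used had 12.4% of the *Runx1* window under peaks, 12.0% of *Runx1t1*, 10.3% of *Runx2*, 5.05% of *Runx3* and 2.09% of *Cbfb*. WT livers had 2.30% and 0.171% at *Runx1* and at most 0.274% at any of the others. *Runx1* was the only member with a peak in both WT livers, at 7.22 and 4.51 times the genome share, within the 2.25 to 8.16 times of the other WT libraries with a peak at this gene. There is no replicate of the *Tdg* null liver, so the genotypes were not compared by a test.

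Among *Tdg* null libraries, *Runx1* was covered 2.41 to 4.09 times as densely as the genome, and its window ranked at the 74.9th to 97.4th percentile of genes with long windows (median 88.4). *Runx1t1* ranked at the 70.8th to 96.5th percentile (median 86.6), *Runx3* had a median of 73.8 and *Runx2* of 72.0. *Cbfb* ranked at the 13.7th to 55.7th percentile (median 40.8), the lowest of the 5.

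The order of the *Tdg* null tissues differed from gene to gene on the enrichment scale. At *Runx1* it was liver, hindbrain, heart and carcass from high to low, with means of 2.00, 1.66, 1.60 and 1.40. The hindbrain, heart and carcass libraries overlapped, and the liver library was above them all. At *Runx2* liver (1.73) was above carcass (1.15), hindbrain (0.96) and heart (0.10), and the hindbrain libraries overlapped with those of carcass. At *Runx3* the order was hindbrain (1.47), carcass (1.12), heart (0.96) and liver (0.72), with the hindbrain library of litter Z, at 0.83, among the others. At *Cbfb* the hindbrain libraries (mean -0.39) overlapped with those of carcass (-0.01), the liver library (-0.51) lay within the hindbrain range and below both carcasses, and heart (-2.04) was below all.

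*Runx1t1* was the 1 gene of the 5 at which hindbrain stood apart. Its 4 *Tdg* null hindbrain libraries had enrichments of 0.90 (litter A), 1.07 (O), 1.02 (Q) and 1.39 (Z). The hearts had 1.75 and 1.51, the carcasses 2.16 and 1.92 and the liver 1.96, all above the highest hindbrain. With the tissues of an embryo averaged, the other tissues were covered 1.67 times as densely as hindbrain relative to the genome (log2 difference of -0.74). The exact permutation p was 0.0667, the smallest that 4 embryos against 2 allow, and 0.161 after adjustment over all genes. All 4 hindbrain libraries below the other 5 was the pattern of 3.23% of all genes, of 7.22% of genes with long windows and of 1 of 5 members. The opposite pattern, in 6.33% of all genes and 5.77% of those with long windows, was that of 0 members. The separation was not present with peaks of at least 600 bases alone, where the difference was -0.38 and the groups overlapped. Hindbrain libraries came from litters A, O, Q and Z and the others from pair_a and pair_b, so tissue and litter cannot be told apart.

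**Figure D2:**
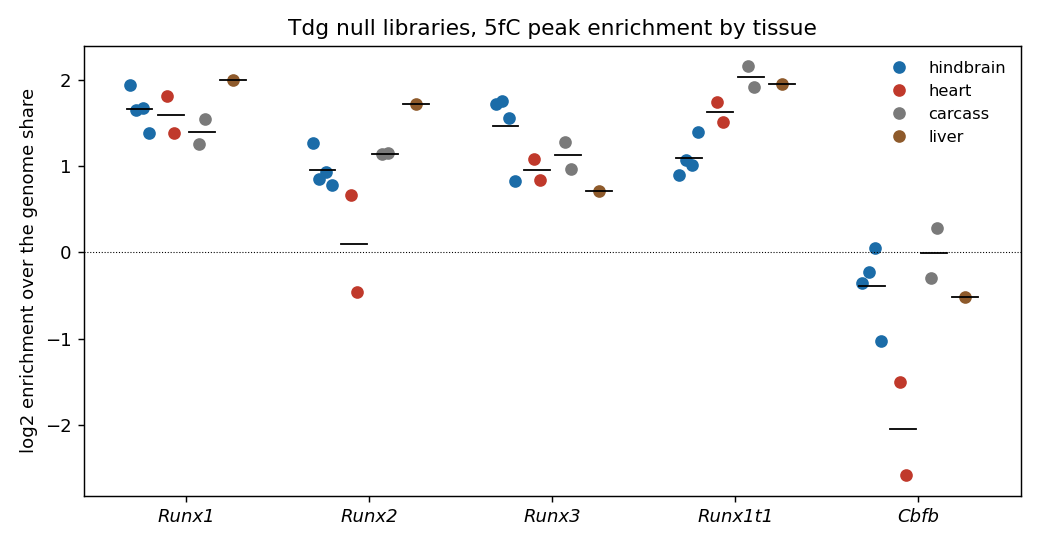
Log2 enrichment of each gene window over the genome share (vertical axis, 0 dotted) in the 9 *Tdg* null libraries, coloured by tissue, with black lines at tissue means. At *Runx1t1* the 4 hindbrain points lie between 0.90 and 1.39, below the 5 others at 1.51 to 2.16.

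The peaks of the *Tdg* null libraries were not spread evenly along these genes. Coding exons were densely covered at *Runx3* (43.0% ± 17.9 of their bases, SD over 9 libraries), *Runx1t1* (40.9% ± 15.7) and *Runx1* (34.9% ± 20.1). Introns of the same genes had 9.79% ± 4.004, 15.4% ± 10.2 and 14.3% ± 7.03. At *Runx3* and *Runx1t1* coding exons exceeded introns in 9 of 9 libraries, at *Runx1* in 7. All 9 was the pattern of 4.14% of all genes with both parts and of 8.95% of those with long windows, and of 2 of 5 members. *Cbfb*, with 11.9% ± 11.6 of coding bases against 3.22% ± 2.40 of introns, had the same order in 5 libraries and no covered coding base in the other 4. *Runx2* differed from these, at 7.53% ± 8.84 of coding and 9.36% ± 4.55 of intron bases, with coding exons above introns in 3 of 9 libraries. Over all genes the ratio of coding exon to intron coverage was 0.94 to 1.45 in the *Tdg* null libraries, while the ratio of the means over libraries was 4.39 at *Runx3*, 2.66 at *Runx1t1* and 2.44 at *Runx1*. Peaks had a median length of 600 to 700 bases in these libraries and exons are short, so a peak counted over an exon also reaches into the introns beside it.

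The ends of the range show how uneven this was between libraries. Coding exons of *Runx1* had 44.3% of their bases under peaks in hindbrains A, O and Z and 11.0% in hindbrain Q, and 62.5% in carcass pair_b but 3.32% in liver. At *Runx3* the same 52.9% was covered in 6 of 9 libraries. No WT library had a peak over a coding base of *Runx1*, while 8 of 10 had peaks in its introns. At *Runx1t1*, in contrast, WT libraries covered 7.62% ± 10.4 of coding bases (5 of 10 libraries) and 0.331% ± 0.448 of introns.

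**Figure D3:**
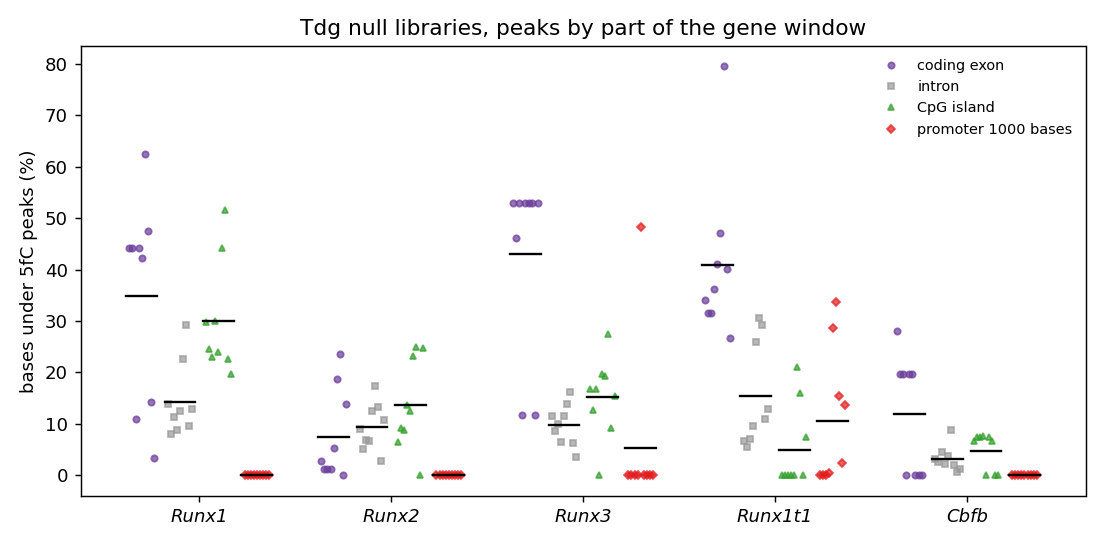
Percent of the bases of each part of the gene windows under 5fC peaks (vertical axis) in the 9 *Tdg* null libraries, 1 point per library and black lines at means. Coding exons lie above introns at *Runx3* and *Runx1t1*, and the promoter points of *Runx1*, *Runx2* and *Cbfb* are all at 0.

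Of the 12 starts of transcription of the 5 genes, 6 had no *Tdg* null peak within 1 kb, near the share over all genes (45.9% of CpG-rich and 46.5% of other starts). The 1000 bases before the annotated starts held no covered base at *Runx1*, *Runx2* or *Cbfb* in any of the 19 libraries. From 2000 bases before to 500 after the starts, the mean over *Tdg* null libraries was 1.54% at *Runx1*, 0.755% at *Runx2* and 6.22% at *Cbfb*. Within 1 kb on either side, the proximal starts of *Runx1* (at 92697573 and 92696255), of *Runx2* (44873597) and of *Runx3* (134708411), and the start of *Cbfb* (107694574), had no peak in 9 *Tdg* null and 10 WT libraries. With the first start of *Runx1t1* these are the 6 CpG-rich starts of the 5 genes (observed over expected CpG of at least 0.6 in that span). Of them 5 of 6 had no *Tdg* null peak, against the 45.9% of 15358 CpG-rich starts, a background added after the values were seen. Both proximal starts of *Runx1*, 128.738 kb and 130.056 kb from the first, have spans that overlap, so these 5 are not all separate sites. The distal start of *Runx1*, whose sequence with its pair of ACCACA is shown above, was reached by peaks in 3 *Tdg* null libraries, none of them hindbrain. That of *Runx2* was reached by none, and that of *Runx3* by 1 *Tdg* null and 1 WT library. *Runx1t1* was the exception, with peaks near its 4 starts in 5, 4, 4 and 6 *Tdg* null libraries, of which 1, 0, 0 and 1 were hindbrain.

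CpG islands were covered to different degrees. They were taken as overlapping 200-base stretches, each with at least 50% GC and an observed over expected CpG above 0.6, joined into one, so a joined island can fall below 50% GC as a whole. *Runx1* has 50 such islands in its window, of which 36 were touched by a *Tdg* null and 17 by a WT peak. Their bases were covered to 29.9% ± 10.9 in the *Tdg* null libraries (SD, n = 9), against 14.3% ± 7.03 of its introns. The means for islands and introns were 15.2% ± 7.62 and 9.79% ± 4.004 at *Runx3*, 13.7% ± 8.85 and 9.36% ± 4.55 at *Runx2*, and 4.80% ± 3.61 and 3.22% ± 2.40 at *Cbfb*. *Runx1t1* had the opposite order, with 4.94% ± 8.15 of island and 15.4% ± 10.2 of intron bases covered. *Runx2* had 12 of 26 islands touched in *Tdg* null and 6 in WT libraries, *Runx3* 7 of 18 and 0, *Runx1t1* 4 of 7 and 1, and *Cbfb* 2 of 5 and 0. The longest island was touched in no library at *Runx1* (1215 bases), *Runx2* (2385), *Runx3* (1235) and *Runx1t1* (1087). At *Cbfb* the longest (1662 bases) was touched in 3 *Tdg* null and 0 WT libraries. No share over the islands of all genes was computed, so neither these counts nor the coverage has a background.

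Few bases were under peaks in every *Tdg* null library. Of the bases covered in at least 1 of the 9, all 9 covered 711 at *Runx1* (0.771%), 600 at *Runx2* (0.712%), 1000 at *Runx3* (5.51%), 1000 at *Runx1t1* (1.57%) and 0 at *Cbfb*, against 2.38% over the genome. The stretch at *Runx1* lies 5 kb before its first start, where it runs to the edge of the window, and that at *Runx3* takes in a coding exon and the start of the intron after it, 50.4 kb from the first start. The middle of each is shown, which at *Runx3* is intron sequence, because they were the recurrent sites of 5fC at these factors. CpGs are in capitals.
Runx1 upstream, chr16:92830806-92831105, minus strand: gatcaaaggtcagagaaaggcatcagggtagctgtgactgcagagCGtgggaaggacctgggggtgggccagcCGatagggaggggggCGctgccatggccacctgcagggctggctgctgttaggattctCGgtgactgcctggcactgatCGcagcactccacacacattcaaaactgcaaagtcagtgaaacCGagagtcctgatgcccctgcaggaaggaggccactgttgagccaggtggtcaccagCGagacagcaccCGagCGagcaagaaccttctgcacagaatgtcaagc
Runx3 intron, chr4:134727351-134727650, plus strand: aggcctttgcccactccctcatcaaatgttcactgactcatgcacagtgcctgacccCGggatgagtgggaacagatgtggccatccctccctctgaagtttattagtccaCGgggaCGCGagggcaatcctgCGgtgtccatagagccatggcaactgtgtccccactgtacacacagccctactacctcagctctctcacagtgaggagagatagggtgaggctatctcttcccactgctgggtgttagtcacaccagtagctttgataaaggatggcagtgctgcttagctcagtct
They hold 9 and 5 CpGs, where the middle 300 bases of the 12051 stretches of at least 300 bases under all 9 libraries in the genome hold 7.35 on average. Neither holds TGTGGT or ACCACA, which 18.1% of those 12051 did. *Runx2* had its stretch in an intron, 104.3 kb from the first start, and both WT carcasses covered it too. The longer of the 2 stretches of *Runx1t1* spans a coding exon 93.8 kb from its first start. *Cbfb* reached 6 of 9 libraries, all 4 hindbrains among them, over 700 bases of an intron that reach into a short CpG island of 251 bases, 1.3 kb from the start that itself carried no peak.

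**Figure D4:**
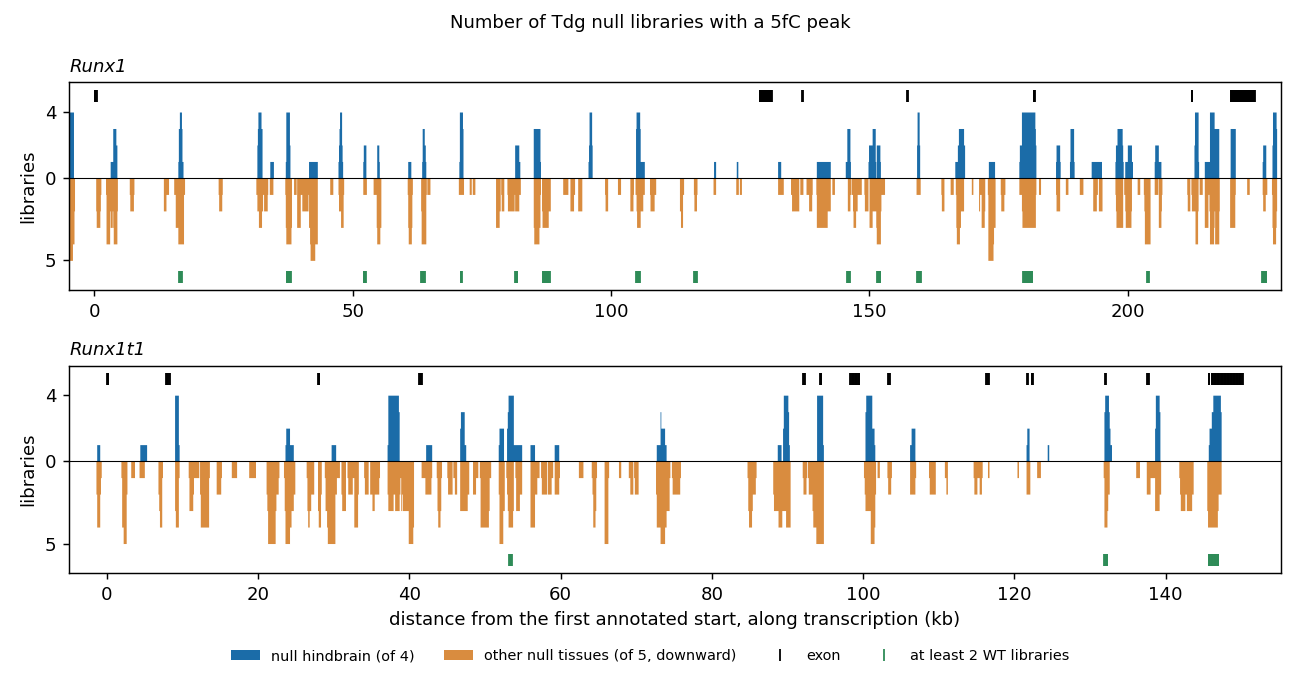
Number of *Tdg* null libraries with a peak (vertical axis, hindbrain up to 4 above and heart, carcass and liver together up to 5 below the line) by distance in kb from the first start of *Runx1* and *Runx1t1*. Black ticks are exons and green ticks bases under peaks of at least 2 WT libraries, and the proximal starts of *Runx1* near 129 kb and 130 kb have none.

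Differences between hindbrain and the other tissues, which came from other litters, lay in particular stretches. At *Runx1t1*, 3100 bases in 6 stretches were under peaks of all 5 heart, carcass and liver libraries and of no hindbrain library, and no base had the opposite pattern. They made up 4.86% of the bases under any *Tdg* null peak in that window, against 1.24% over the genome. *Runx1t1* was already set apart by its lower hindbrain enrichment, so this share restates that pattern and adds no separate support. These counts are not scaled to the total of peaks. *Tdg* null hindbrain libraries covered 2.68% to 3.67% of the genome and the other *Tdg* null libraries 3.03% to 8.09%. *Runx1* had 100 bases of the first kind (0.108%) and 500 of the second (0.542%), *Runx2* 500 (0.594%) and 200 (0.237%), *Runx3* 0 and 300 (1.65%), and *Cbfb* none of either, where the second kind made up 0.456% over the genome. The longest such stretch of *Runx1t1* measures 1000 bases and lies in the first intron at chr4:13691801-13692800, 21.2 kb from the first start, and no WT library covered it. Its middle is shown as an example of these stretches, which together cover 3100 bases of the window of 160.214 kb.
Runx1t1 intron, chr4:13692151-13692450, plus strand: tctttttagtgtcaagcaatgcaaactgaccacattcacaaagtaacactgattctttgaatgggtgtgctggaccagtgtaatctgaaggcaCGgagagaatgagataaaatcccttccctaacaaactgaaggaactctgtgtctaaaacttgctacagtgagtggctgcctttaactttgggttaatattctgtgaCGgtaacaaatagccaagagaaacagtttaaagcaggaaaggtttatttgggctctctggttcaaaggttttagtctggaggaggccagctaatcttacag
It has 2 CpGs in 300 bases, and 1 RUNX core motif. The hindbrain stretch of *Runx1* is in intron 2, 95.7 kb from the first start, and that of *Runx3* in intron 1, 1.6 kb from the first start.

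WT peaks mostly fell where a peak of some *Tdg* null library also lay. Of the bases under WT peaks, 92.9% at *Runx1*, 89.6% at *Runx2*, 83.3% at *Runx3* and 100% at *Runx1t1* and *Cbfb* were under a peak of at least 1 *Tdg* null library, against 85.9% over the genome. Peaks of the matched *Tdg* null library (that tissue in that litter, with liver pair_b left out) overlapped 27 of 49 WT peaks at *Runx1*, 29 of 46 at *Runx2*, 4 of 7 at *Runx3*, 11 of 13 at *Runx1t1* and 0 of 2 at *Cbfb*. Peaks of at least 1 of the 9 overlapped 47, 41, 6, 13 and 2 of them. The site found in most WT libraries was in intron 2 of *Runx1* at chr16:92720901-92721400, 104.9 kb from the distal start and before the proximal ones. It was covered in WT hindbrains O and Q, both WT carcasses and WT heart pair_b, and in 7 of 9 *Tdg* null libraries. At *Runx2*, 4 WT libraries (both carcasses, heart pair_b and liver pair_a) shared a stretch over an exon that encodes part of the Runt domain. Both are shown as the sites where 5fC was seen with TDG present, with CpGs in capitals.
Runx1 intron, chr16:92721001-92721300, minus strand: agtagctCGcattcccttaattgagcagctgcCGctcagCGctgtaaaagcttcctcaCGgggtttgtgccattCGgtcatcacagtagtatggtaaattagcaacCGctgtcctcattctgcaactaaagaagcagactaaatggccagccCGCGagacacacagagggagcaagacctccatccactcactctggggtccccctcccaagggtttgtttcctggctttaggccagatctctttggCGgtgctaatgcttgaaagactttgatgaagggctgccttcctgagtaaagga
Runx2 Runt domain exon, chr17:44861651-44861950, minus strand: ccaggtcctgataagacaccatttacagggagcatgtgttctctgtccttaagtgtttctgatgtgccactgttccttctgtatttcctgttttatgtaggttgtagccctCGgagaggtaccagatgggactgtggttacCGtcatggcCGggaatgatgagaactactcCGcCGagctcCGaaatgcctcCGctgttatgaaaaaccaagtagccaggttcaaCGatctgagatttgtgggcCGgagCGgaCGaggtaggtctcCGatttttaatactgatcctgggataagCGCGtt
They hold 9 and 14 CpGs, and both lie in sequence that meets the CpG island criteria in part. *Runx1t1* had 4 WT libraries (hindbrains O and Q and both carcasses) over a coding exon 131.9 kb from its first start, where 8 of 9 *Tdg* null libraries also had a peak.

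**Figure D5:**
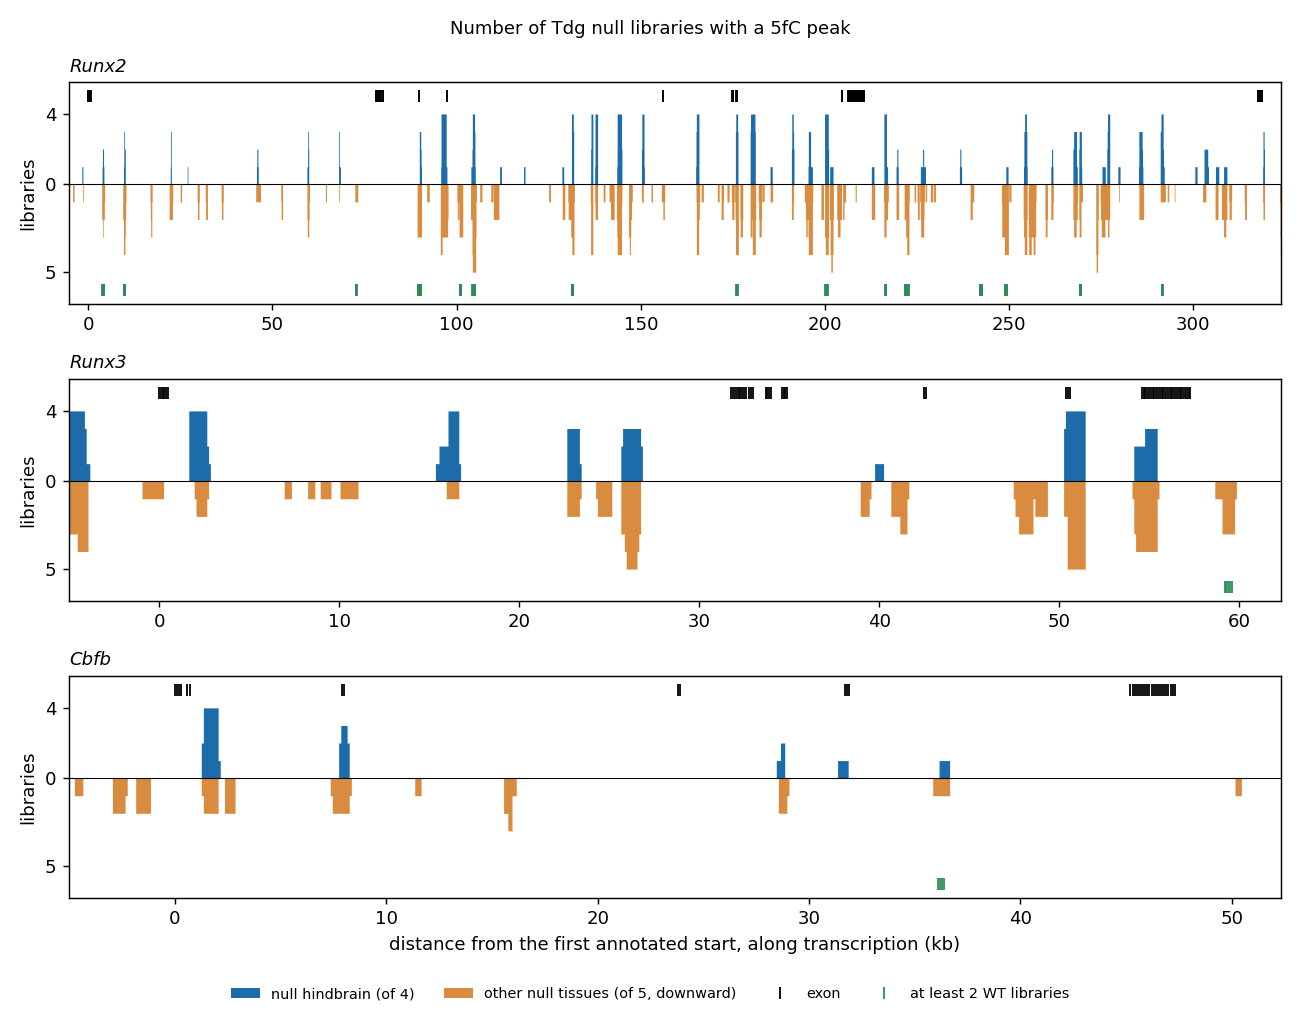
The same map for *Runx2*, *Runx3* and *Cbfb*, with libraries on the vertical axis and distance in kb from the first start on the horizontal axis. At *Runx3* all 9 libraries meet at the exon 50.4 kb from the start, and at *Cbfb* no base is under peaks of more than 6.

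Genes whose log2 enrichment followed that of each member over the 9 *Tdg* null libraries were ranked by Pearson's r among 4113 genes with long windows and peaks in all 9. The libraries share embryos and differ in total peaks, so r is a description. *Runx2* was followed by *Smoc2* (r = 0.99), *Ccbe1* (0.98) and *Pear1* (0.96), and *Runx1t1* by *Pkhd1l1* (0.98), *Tspan5* (0.96) and *Prickle2* (0.95). *Cbfb* was followed by *Lmbrd1* (0.97), *Pdgfc* (0.96) and *Slc24a3* (0.95), *Runx3* by *Acap2* (0.92), *Tprg* (0.87) and *Tead4* (0.87), and *Runx1* by *Wdr69*, *Ambra1* and *Pla2g4a* (0.90, 0.90 and 0.89). Between members r was highest for *Runx2* and *Cbfb* (0.80) and lowest for *Runx3* and *Runx1t1* (-0.67).

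Lists of genes that work with the Runx factors were read in the same hindbrain comparison, and 55 of their 57 genes were matched to a window. No gene of any list was called, as for all genes. All 4 *Tdg* null above all 4 WT hindbrains was seen at 13 of 14 corepressors and coactivators of RUNX proteins (median difference 5.97 points), at 10 of 14 blood transcription factors that act with *Runx1* (5.54 points), at 7 of 12 sensory neuron and T cell genes of the *Runx3* programme (3.57 points) and at 5 of 15 skeletal genes of the *Runx2* programme (1.82 points), beside 55.1% of all genes and 88.2% of those with long windows. The median window was 93.8 kb, 31.4 kb, 27.2 kb and 16.4 kb in that order, and 25.5 kb over all genes, which had a median difference of 2.47 points. *Cbfa2t3* and *Cbfa2t2*, named here after their values were seen because they are the paralogues of *Runx1t1*, had 10.6% ± 0.917 and 3.61% ± 0.233 of their windows under peaks in *Tdg* null hindbrain (SD, n = 4) and 0.467% ± 0.933 and 0% in WT. Among the 55 list genes, 5 had all 4 *Tdg* null hindbrain libraries below the other 5 on the enrichment scale and 1 had them above, beside 7.22% and 5.77% of genes with long windows and 3.23% and 6.33% of all genes. *Cbfa2t3* was one of those below (log2 difference of -1.12), the pattern of *Runx1t1* among the members, while *Cbfa2t2* overlapped (-0.34). Others were *Wwtr1* (-0.77), *Etv6* (-1.14) and *Ets1* (-0.73), and *Sin3a* (1.58) was the gene above, and these too were chosen after their values were seen.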

How the data were processed

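5fC pull-down sequencing was carried out on genomic DNA of 20 libraries. Per the labels and the methods, the authors trimmed reads with Trim Galore, aligned them to NCBIM37 (mm9) with Bowtie2 and called peaks in each library on its own with the MACS caller of SeqMonk (p-value cutoff of 1e-05, fragments of 200 bp). The deposited files give the start and end of each peak on a grid of 100 bases, read as 1-based and inclusive, with no height or read count, so precision is set by the number of libraries.

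Here the bases under peaks were summed over each gene window (gene body plus 5 kb) for 22183 protein-coding genes on 21 chromosomes; 42 symbols with separate loci were dropped. Computation was in Python 3.11.15 (scipy 1.17.1 for checks, pandas 2.3.3, numpy 2.4.6; matplotlib 3.10.9 for plots), and the tests were tested on simulated data. Hindbrains were compared by two-sided exact permutation tests and litters by exact sign flips, with Benjamini-Hochberg adjustment over all genes and a threshold of 0.05. The labels give each embryo a litter (A, O, Q, Z, pair_a or pair_b) that holds 1 embryo of each genotype, so the litter pairs them. Introns are gene bases outside exons. The backgrounds for coding exons and for CpG-rich starts were added after the data were seen.

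The 5 genes and the gene lists were chosen with earlier results of these data known. List genes were to be named where called, 2 per list, and none was. For each member the 3 genes of highest Pearson r were named, and stretches were named by the number of libraries over them. *Hdac4* and *Gfi1* were not matched. Alternatives were other windows, peak filters, scales and backgrounds and leaving out libraries.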

Additional observations from a re-analysis of the deposited data

Results flagged for a closer look

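At *Runx2*, the WT hindbrain of litter Q was far from the other 3, with 0.365% of the window under peaks against 0% in each of them. On the enrichment scale, where those 3 differ only by their genome share, it was the WT hindbrain of litter O that lay apart, at -1.47. At *Cbfb*, the WT hindbrain of litter O held 0.698% and the other 3 held 0%. For measures that vary continuously chance sets apart about 1 in 20 groups of this size, a rate that does not apply to these percentages, since any group with 3 values at 0 and 1 above is set apart.

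The difference in log2 enrichment between *Tdg* null and WT ran in opposite directions in hindbrain and carcass at *Runx2* and *Runx3*. At *Runx2* it was above 0 in 4 of 4 hindbrain litters (1.22 to 2.32) and below 0 in both carcass litters (-1.12 and -0.59), a gap of 2.48 between the means. At *Runx3* it was 1.26 to 4.07 in hindbrain and -0.54 and -0.49 in carcass, a gap of 3.20. The difference between tissues was not tested, and hindbrain and carcass came from different litters. WT hindbrains had 0% of both windows under peaks in 7 of 8 values, so their enrichment there is set by the added 0.1 percentage points.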

How the results depend on the processing

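In hindbrain the mean of the *Tdg* null libraries was above that of the WT libraries at each of the 5 genes under the alternatives run, but the tests changed. On the enrichment scale the exact permutation p went from 0.0286 to 0.2 at *Runx1*, 0.0571 at *Runx1t1* and 0.857 at *Cbfb*, where the difference was 0.08. The count of members called, 0 in the values reported, was 5 with a window of 10 kb on each side (63.4% of genes called) and with long genes alone as background. Without single libraries it ranged from 0 to 5, and 5 were called without the *Tdg* null hindbrain of litter O. With litter as the replicate block in hindbrain, the exact sign-flip test gave p = 0.125, the smallest for 4 pairs, and called 0. Over 6 litters the count of members called was 5 with 10 kb (63.5% of genes), 5 with long genes alone (88.7%) and 5 with no replicate block, all 9 *Tdg* null and 10 WT libraries in 92378 exact splits in place of resamples (71.1%). In the comparison of *Tdg* null tissues, the member with hindbrain below all others went from 1 to 0 with peaks of at least 600 bases, and the members with hindbrain above all ranged from 0 to 1 when single libraries were left out, 1 being reached without hindbrain litter Z. On the percent scale, hindbrain minus other tissues turned to -6.03 at *Runx1*, -4.02 at *Runx2*, -1.67 at *Runx3* and -1.37 at *Cbfb*, a scale on which libraries with more peaks read higher. Leaving out 1 library, it ranged from -0.0233 to 0.18 at *Runx1*, -0.21 to 0.60 at *Runx2* and -0.15 to 1.29 at *Cbfb* in log2, so none of these has a settled direction. With promoters from 2000 bases before to 500 after a start, coverage was 1.54% at *Runx1*, 0.755% at *Runx2* and 6.22% at *Cbfb* in place of 0. The causes of these changes were not tested. The files hold no depth, and a window with no peak is not shown to lack 5fC.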
